A study of Rattus norvegicus with 13 samples.

Results

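Exocytosis SNAREs, synaptotagmins and proprotein convertases are genes with which a cell fuses secretory vesicles with its surface and cuts the proteins those vesicles carry. Some of the genes taken here, such as *Stx16* and *Snap29*, serve steps inside the cell instead. Their expression was measured by RNA-seq in rat mammary epithelial cells within the window of susceptibility (WOS), at 6 weeks of age, and outside WOS, at 10 weeks. Members were chosen by symbol, with earlier results of these data known. The symbols named syntaxins, syntaxin-binding proteins, VAMPs, SNAP proteins, synaptotagmins and synaptotagmin-like proteins. They also named RAB3 and RAB27 GTPases, exocyst subunits, UNC13 and CADPS priming factors, and the furin-type convertases. The rule gave 68 of the 14790 genes in the table, with 66 distinct symbols, since *Exoc2* and *Sytl2* each stand on 2 rows with different identifiers. All 68 passed the minimum mean of 1 normalized count.

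The study asked how gene expression in these cells differs between the ages at which the gland is more and less open to carcinogens. All rats were of the mammary cancer susceptible strain Wistar-Furth, 6 of them at 6 weeks (rats 70, 71, 75, 80, 84 and 86) and 7 at 10 weeks (rats 72, 74, 78, 81, 83, 85 and 87), with 1 library per rat and no treatment named for either age. Abdominal and inguinal glands were digested with collagenase and filtered for ductal fragments, which are mainly epithelial but also hold stromal fibroblasts and immune cells. In such a mixture, fewer cells of a type and less RNA per cell cannot be told apart. Values of single rats are given below in the order of the rat numbers just listed, and p-values measure the spread between these rats.

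In exocytosis a SNARE on the vesicle, a VAMP, zips up with a syntaxin and a SNAP-25 relative on the target membrane and pulls both membranes together. Syntaxin-binding proteins and UNC13 factors ready the syntaxin. RAB27, RAB3 and the exocyst bring the vesicle to the membrane, and several synaptotagmins let calcium trigger the fusion. Proprotein convertases cleave growth factors, receptors and hormones at basic residues on their way to the surface. In the mammary gland, luminal cells release caseins by exocytosis at the apical membrane.

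The values are estimated counts that the authors scaled per library and rounded, called normalized counts here. They summed to 13261906 to 15659533 per rat within WOS and to 13766735 to 15402814 outside WOS (p = 0.302 for the means in a two-sided exact permutation test). Before scaling, the libraries implied 6.90e+06 to 2.31e+07 reads within WOS (n = 5 rats, as rat 86 gave no estimate) and 7.12e+06 to 1.64e+07 outside WOS (n = 7). Rats 78 and 80 were the shallowest, and 1 read there was worth 2.07 and 1.92 normalized counts, so members with low counts are measured less finely in them. Once the means of the ages had been taken out, a first component with 28.3% of what variation was left put 5 rats in a smaller set (rats 75, 80, 78, 81 and 83) and the other 8 in a larger set, a split that no label names.

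Normalized counts were tested by limma on the log2(value + 1) scale, on which changes of genes with low counts come out too small. P-values of all 14790 genes were adjusted together after Benjamini-Hochberg, and a gene was called at an adjusted p under 0.05. Fold changes divide 6 weeks by 10 weeks, so that genes higher outside WOS have log2 values below 0. Of the 68 members, 10 were called (14.7%), against 16.1% of all genes tested, so as a group the members were not called more often than other genes. By direction, 8 members fell within WOS relative to 10 weeks (11.8%, against 7.39% of all genes) and 2 rose (2.94%, against 8.71%). The lower members were *Stxbp5l*, *Stx3*, *Unc13b*, *Stx16*, *Exoc6*, *Snap23*, *Pcsk1* and *Syt2*, and the higher members were *Syt8* and *Syt5*. For 5 members, all lower within WOS, the ages did not overlap (7.35%, against 6.07% of all genes in either direction and 2.78% in that direction). These were *Stxbp5l*, *Stx3*, *Unc13b*, *Stx16* and *Pcsk1*. No member was higher within WOS in every rat, where 3.29% of all genes were. The median log2 fold change of the members was -0.0059, with 34 of 68 below 0, and that of all genes was 0.028. Without the shallow rats 78 and 80, a comparison chosen after the data were seen, 6 members were called. *Stx16*, *Exoc6*, *Snap23* and *Syt8* were not (limma adjusted p = 0.0532, 0.0561, 0.0637 and 0.0616). Calls over all genes fell as well, to 1846 of 14787 from 2381 of 14790. Whether the depth of these rats or the smaller number of rats lay behind this was not tested.

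**Figure D1:**
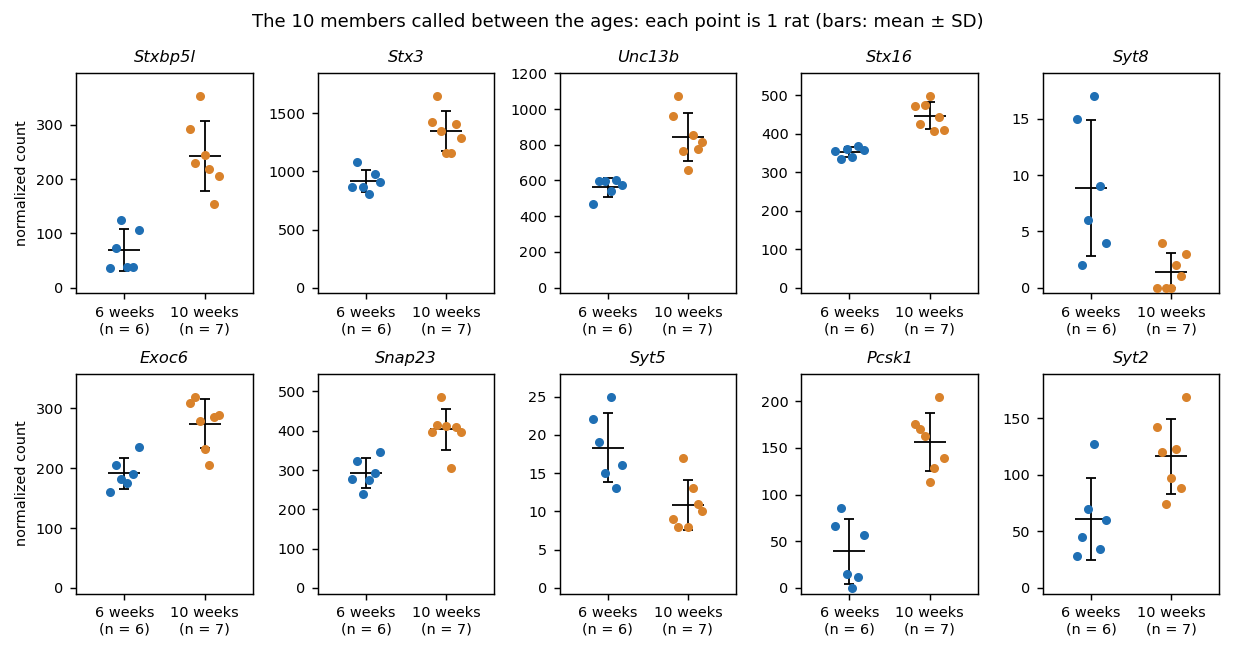
Normalized counts (y axis, from 0 on a scale of its own in each panel) of the 10 called members at 6 weeks (blue, n = 6 rats) and 10 weeks (orange, n = 7 rats). Each point is 1 rat and the bars are mean ± SD. The ages do not overlap for *Stxbp5l*, *Stx3*, *Unc13b*, *Stx16* and *Pcsk1*, and they overlap in the other panels, where *Syt8* stays under 20 normalized counts in every rat.

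RefSeq (build GRCr8) gave the bases just before the transcription start for 54 of the 66 symbols, in 56 windows of 250 bases. These coordinates are those of RefSeq, since the counts were made on another build. The windows of 4 members that fell within WOS are printed. They were picked for contrast and do not stand for all members that fell. The *Stx3* window and the first *Unc13b* window are GC-rich, and those of *Stxbp5l* and *Syt2* are less so. Capitals mark matches, on either strand, to GGGCGG, known as a GC box, to CCAAT, and to TATAAA, known as a TATA box. CACGTG (E-box), TGACGTCA (cAMP response element) and TTCNNNGAA (interferon-gamma-activated site) were searched as well and have no match in these windows.
Stxbp5l, chr11:76839852-76840101, plus strand: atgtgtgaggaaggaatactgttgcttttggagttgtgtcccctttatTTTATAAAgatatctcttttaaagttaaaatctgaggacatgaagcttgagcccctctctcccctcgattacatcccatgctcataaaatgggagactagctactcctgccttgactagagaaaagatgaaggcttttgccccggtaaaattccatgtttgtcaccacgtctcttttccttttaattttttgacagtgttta
Syt2, chr13:48736872-48737121, plus strand: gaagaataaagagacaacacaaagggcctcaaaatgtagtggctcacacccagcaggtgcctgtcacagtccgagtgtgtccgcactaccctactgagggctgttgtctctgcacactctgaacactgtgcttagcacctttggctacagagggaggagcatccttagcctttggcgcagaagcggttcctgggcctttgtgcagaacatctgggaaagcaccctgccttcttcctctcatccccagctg
Stx3, chr1:218110467-218110716, minus strand: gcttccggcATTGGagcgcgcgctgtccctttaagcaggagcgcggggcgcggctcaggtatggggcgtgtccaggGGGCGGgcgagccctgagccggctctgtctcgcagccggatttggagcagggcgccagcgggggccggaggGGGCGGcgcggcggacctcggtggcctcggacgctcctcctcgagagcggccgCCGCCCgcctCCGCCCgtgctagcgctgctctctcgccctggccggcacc
Unc13b, chr5:62084787-62085036, plus strand: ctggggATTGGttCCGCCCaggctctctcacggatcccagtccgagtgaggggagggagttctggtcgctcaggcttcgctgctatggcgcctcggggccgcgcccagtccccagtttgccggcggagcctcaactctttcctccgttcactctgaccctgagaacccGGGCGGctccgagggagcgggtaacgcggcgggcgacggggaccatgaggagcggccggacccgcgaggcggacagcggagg

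The *Stx3* window had 76.4% GC with 4 GC boxes and 1 CCAAT box. The *Unc13b* window, the first of its 2, had 70% GC with 2 GC boxes and 1 CCAAT box. The second *Unc13b* window, not printed, had 54.8% GC and 1 GC box, close to the GC content of the *Syt2* window. In contrast, the *Stxbp5l* window had 39.6% GC. Its capitals are 1 stretch that matches TATAAA on both strands, at 202 and 200 bases before the start. The *Syt2* window had 54.4% GC and no match. Of the lower members whose windows are not printed, *Stx16*, *Exoc6* and *Snap23* had 62.8%, 69.2% and 64.8% GC. Over all 56 member windows the median GC content was 62.2%, against 51.2% over all 33469 RefSeq windows. Those windows were not limited to the genes measured here, and no comparison with windows of other measured genes was made. A GC box stood in 62.5% of member windows (30.5% of all windows), CCAAT in 30.4% (34.0%) and TATAAA in 5.36% (12.9%). CACGTG stood in 8.93% (5.59%), TGACGTCA in 1.79% (1.59%) and TTCNNNGAA in 1.79% (7.67%). A match describes these letters only.

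Of 14 syntaxins, the SNAREs of target membranes, 2 fell within WOS. *Stx3* (ENSRNOG00000021013), the syntaxin of the apical membrane of polarized epithelia, had 864, 1081, 870, 806, 974 and 907 normalized counts within WOS and 1427, 1648, 1351, 1157, 1155, 1411 and 1289 outside WOS. All rats within WOS lay below all rats outside it, although rat 71 at 6 weeks came close to rats 81 and 83 at 10 weeks. The means were 917 ± 97.6 (SD, n = 6) and 1348 ± 172 (SD, n = 7), with a log2 fold change of -0.55 (SE 0.11, limma adjusted p = 0.00582 after Benjamini-Hochberg). Leaving out any 1 of the 13 rats kept this call. *Stx16* (ENSRNOG00000005281), which serves transport from endosomes to the trans-Golgi network, had 356, 335, 359, 340, 368 and 357 within WOS and 472, 426, 473, 497, 407, 443 and 410 outside WOS. The 6-week rats were tightly grouped, with an SD of 12.5, and all lay below the 10-week rats. The log2 fold change was -0.34 (SE 0.084, limma adjusted p = 0.0173), and with library size scaling it was no longer called (-0.29, limma adjusted p = 0.0517). Nor was it called among the rats of the larger set (-0.30, limma adjusted p = 0.0557).

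The other 12 syntaxins were not called, with log2 fold changes from -0.17 for *Stx8* of late endosomes to 0.30 for *Stx11*, known from granule release of immune cells. *Stx4*, the syntaxin of the basolateral membrane, had 220 to 290 within WOS (median 264.5) and 180 to 267 outside WOS (median 235). Its log2 fold change was 0.18 (95% interval -0.063 to 0.43, limma adjusted p = 0.29). Whether *Stx3* and *Stx4* changed unequally was not tested. *Stx12* of recycling endosomes had -0.074 and *Stx6* of the trans-Golgi network -0.015, with an interval of -0.20 to 0.17. The neuronal *Stx1a* had 14 to 58 normalized counts over all rats and an interval of -0.37 to 0.92.

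Of the SNAP-25 relatives, 1 of 3 fell. *Snap23* (ENSRNOG00000050552), the widely expressed partner of plasma membrane syntaxins, had 278, 322, 238, 274, 292 and 345 normalized counts within WOS and 397, 415, 487, 413, 306, 410 and 396 outside WOS. Rat 83 was the 1 rat outside WOS that fell among the 6-week rats. The log2 fold change was -0.47 (SE 0.12, limma adjusted p = 0.0218), and it was called in all 13 fits that left out 1 rat, with adjusted p up to 0.0498. *Snap29*, which takes part in fusion inside the cell, had -0.23 (limma adjusted p = 0.187) and *Snap47* 0.060.

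None of the 6 VAMPs was called in the limma fit, and 1 had an unadjusted p under 0.05, as 31.6% of all genes did. *Vamp2*, the synaptobrevin of regulated secretion, had 165 to 263 within WOS (median 232.5) and 224 to 330 outside WOS (median 284), with a log2 fold change of -0.34 (limma adjusted p = 0.124). *Vamp8*, the VAMP of exocrine granules, had 0.19, and *Vamp3*, a widely expressed VAMP of recycling vesicles, had 0.37. *Vamp7* of late endosomes and lysosomes had the largest value of the group, 0.46 (95% interval -0.12 to 1.03). There 5 of 6 rats within WOS lay above every rat outside WOS, and rat 75, at 43, lay below all of them. Of the 13 fits that left out 1 rat, *Vamp7* was called in 1, without rat 75 (0.72, limma adjusted p = 0.0167). It was also called in the larger set of rats, which lacks rat 75 as well (0.52, limma adjusted p = 0.032).

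Among 7 syntaxin-binding proteins, *Stxbp5l* (ENSRNOG00000002496) fell within WOS. It encodes tomosyn-2, which occupies syntaxin and SNAP-25 and so holds back vesicle fusion. Its normalized counts were 36, 74, 124, 38, 38 and 107 within WOS and 293, 230, 353, 245, 218, 155 and 206 outside WOS. The highest 6-week rat (75) lay under the lowest 10-week rat (85). The means were 69.5 ± 38.7 (SD, n = 6) and 243 ± 63.9 (SD, n = 7), and the log2 fold change was -1.93 (SE 0.32, limma adjusted p = 0.00177). It was called in each of the 13 fits that left out 1 rat, with -2.14 to -1.78. Its paralog *Stxbp5*, tomosyn-1, had -0.080 (95% interval -0.30 to 0.14) and 585 to 722 normalized counts within WOS against 576 to 803 outside WOS. The Munc18 proteins *Stxbp2* and *Stxbp3*, found in many cells outside the nervous system, had 0.11 and 0.0097, *Stxbp6* (amisyn) had -0.37, and *Stxbp4* had 0.13.

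Of 4 priming factors, which ready docked vesicles, *Unc13b* (ENSRNOG00000008237) fell. This gene for Munc13-2 had 467, 597, 595, 539, 602 and 575 normalized counts within WOS and 960, 1072, 764, 656, 856, 779 and 818 outside WOS. Rat 81 was the lowest at 10 weeks and still lay above all 6-week rats. The means were 562.5 ± 52.2 (SD, n = 6) and 844 ± 137 (SD, n = 7), with a log2 fold change of -0.57 (SE 0.12, limma adjusted p = 0.00812). The larger set gave -0.69 and the smaller set -0.41. *Unc13a*, the Munc13 of synapses, had -0.45 (limma adjusted p = 0.258) at 12 to 41 normalized counts, and *Cadps2*, a factor for dense-core granules, had -0.18. *Unc13d*, known from granules of blood cells, had -0.061, with an interval of -0.64 to 0.51.

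**Figure D2:**
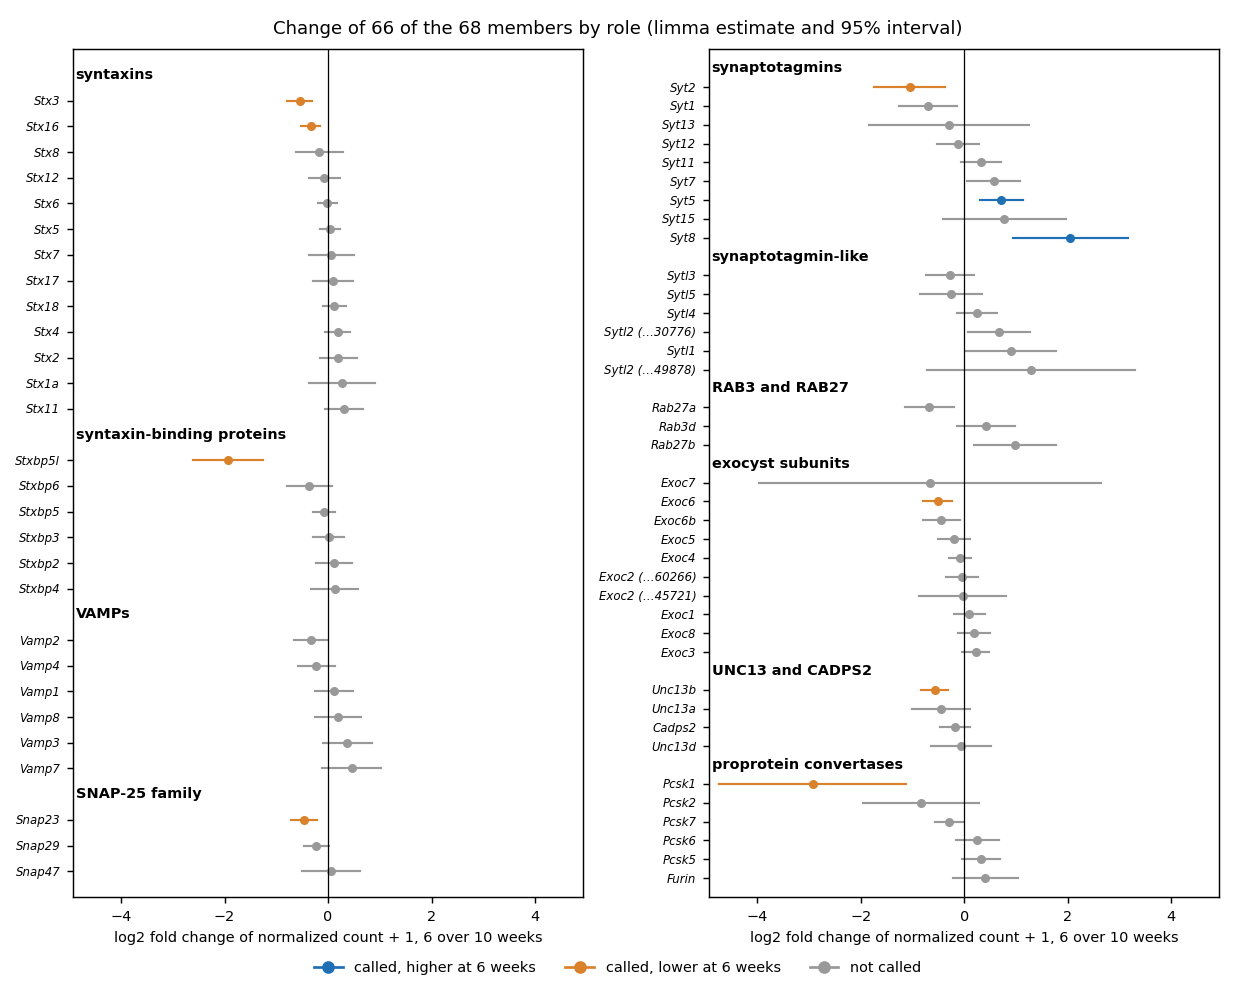
Log2 fold change of normalized count + 1 (x axis, 6 over 10 weeks, limma estimate with its 95% interval) for 66 of the 68 members, grouped by role. The 2 called members above 0 are *Syt5* and *Syt8* (blue), the 8 called below 0 lie in 7 roles (orange), and members not called are grey. Among all 58 members not called, 44 had intervals that lay within a log2 change of 1 in either direction.

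Of the 9 synaptotagmins, 2 were called higher and 1 lower within WOS, against 8.71% and 7.39% of all genes. The 2 higher ones, *Syt8* and *Syt5*, had means of only 4.85 and 14.3 normalized counts over all rats. *Syt8* (ENSRNOG00000020245) had 15, 2, 6, 17, 9 and 4 normalized counts within WOS and 0, 4, 0, 0, 2, 1 and 3 outside WOS. Rats 70 and 80 were highest and rats 72, 78 and 81 were at 0, which at 3 reads allows up to 6.21 normalized counts in the shallowest of them, rat 78. Its log2 fold change was 2.05 (SE 0.51, limma adjusted p = 0.0188). Without the shallow rats 78 and 80 it was 1.66 and not called (limma adjusted p = 0.0616). The larger set of rats gave 1.48 with no call (limma adjusted p = 0.122). The smaller set gave 2.96 (limma adjusted p = 0.263), and with a pseudocount of 0.1 the value was 3.55 and called. *Syt5* (ENSRNOG00000018217), a calcium sensor found on dense-core granules, had 22, 19, 15, 25, 13 and 16 within WOS and 9, 8, 17, 8, 13, 11 and 10 outside WOS. All 6 rats within WOS lay above the 10-week median, and rats 78 and 83 at 10 weeks reached into their range. The log2 fold change was 0.71 (SE 0.19, limma adjusted p = 0.0259). It was lost when rat 70, 71, 72, 74 or 87 was left out (limma adjusted p = 0.0635, 0.0509, 0.0531, 0.0531 and 0.051), at log2 fold changes of 0.65 to 0.70, and with limma-trend (limma adjusted p = 0.101).

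*Syt2* (ENSRNOG00000004756), a fast calcium sensor of neurons and secretory cells, had 28, 45, 70, 127, 34 and 60 normalized counts within WOS and 142, 120, 74, 97, 123, 88 and 169 outside WOS. Rat 80 stood among the 10-week rats and the other 5 rats within WOS lay below all of them. The log2 fold change was -1.06 (SE 0.31, limma adjusted p = 0.0382). The larger set gave -1.63 and the smaller set, where 2 rats stand for 6 weeks, gave -0.024. The call was lost without rat 70, 71, 84, 72, 74, 83 or 87 (limma adjusted p = 0.0864, 0.0733, 0.0874, 0.0732, 0.068, 0.0595 and 0.0756), at log2 fold changes of -1.04 to -0.88. *Syt1*, its close relative, had -0.70 (limma adjusted p = 0.0798) at 10 to 24 within WOS and 15 to 37 outside WOS. It was called in 1 of the 13 fits that left out 1 rat, without rat 81 (-0.83, limma adjusted p = 0.0342). *Syt7*, a slower sensor of high affinity, had 0.57 (limma adjusted p = 0.121) and was called in 1 of these 13 fits, without rat 86 (0.75, limma adjusted p = 0.03). The other 4 were not called, and *Syt13* and *Syt15* varied so much between rats that their intervals ran from -1.85 to 1.25 and from -0.41 to 1.96.

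RAB3 and RAB27 GTPases and the synaptotagmin-like partners of RAB27, which bring granules to the membrane, gave no calls in 9 rows. Of these rows, 4 had an unadjusted limma p under 0.05, as 31.6% of all genes did. *Rab27a* had 79, 106, 148, 171, 102 and 156 normalized counts within WOS and 210, 244, 215, 156, 159, 141 and 294 outside WOS. Rats 75, 80 and 86 lay within the 10-week range and the other 3 below it. With -0.68 (SE 0.22), its limma adjusted p of 0.0508 was just over the threshold, and it was called without rat 80, 86, 81 or 85 (limma adjusted p = 0.0361, 0.0468, 0.0431 and 0.0377, log2 fold changes from -0.77 to -0.73). *Rab27b* pointed the other way, with 13 to 40 within WOS (median 22.5) and 4 to 25 outside WOS (median 13), and a log2 fold change of 0.99 (SE 0.37, limma adjusted p = 0.0845). *Rab27b* was called in 1 of the 13 fits that left out 1 rat, without rat 74 (1.17, limma adjusted p = 0.048). The difference between these paralogs was not tested. *Sytl2* on the row ENSRNOG00000030776 had 395 to 774 within WOS and 205 to 596 outside WOS, with 0.67 (limma adjusted p = 0.117). Its other row, ENSRNOG00000049878, held 0 to 130 and gave 1.29 with an interval of -0.73 to 3.30. *Sytl1* had 0.90 (limma adjusted p = 0.145), and *Rab3d*, the RAB3 of exocrine and mast cell granules, had 0.42 (95% interval -0.15 to 0.98).

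The exocyst tethers vesicles to the plasma membrane, and 1 of its 10 rows fell within WOS. *Exoc6* (ENSRNOG00000036601), the subunit that binds RAB GTPases, had 161, 206, 182, 175, 191 and 235 normalized counts within WOS and 309, 320, 279, 233, 205, 285 and 289 outside WOS. Rats 81 and 83 at 10 weeks overlapped with rats 71 and 86 at 6 weeks. The log2 fold change was -0.51 (SE 0.13, limma adjusted p = 0.0192), called in all 13 fits that left out 1 rat with adjusted p up to 0.0497. Its paralog *Exoc6b* had -0.44 (limma adjusted p = 0.0821) and was called in 1 of these 13 fits, without rat 86 (-0.52, limma adjusted p = 0.0464). For 7 of the other 8 rows, log2 fold changes lay between -0.20 (*Exoc5*) and 0.22 (*Exoc3*). *Exoc7*, the subunit that binds membrane lipids, had 30, 30, 105, 0, 1 and 32 within WOS and 131, 94, 0, 129, 0, 10 and 126 outside WOS. Rats of both ages stood at or near 0 and others at 94 and above, so its value of -0.66 has an interval of -3.97 to 2.65.

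**Figure D3:**
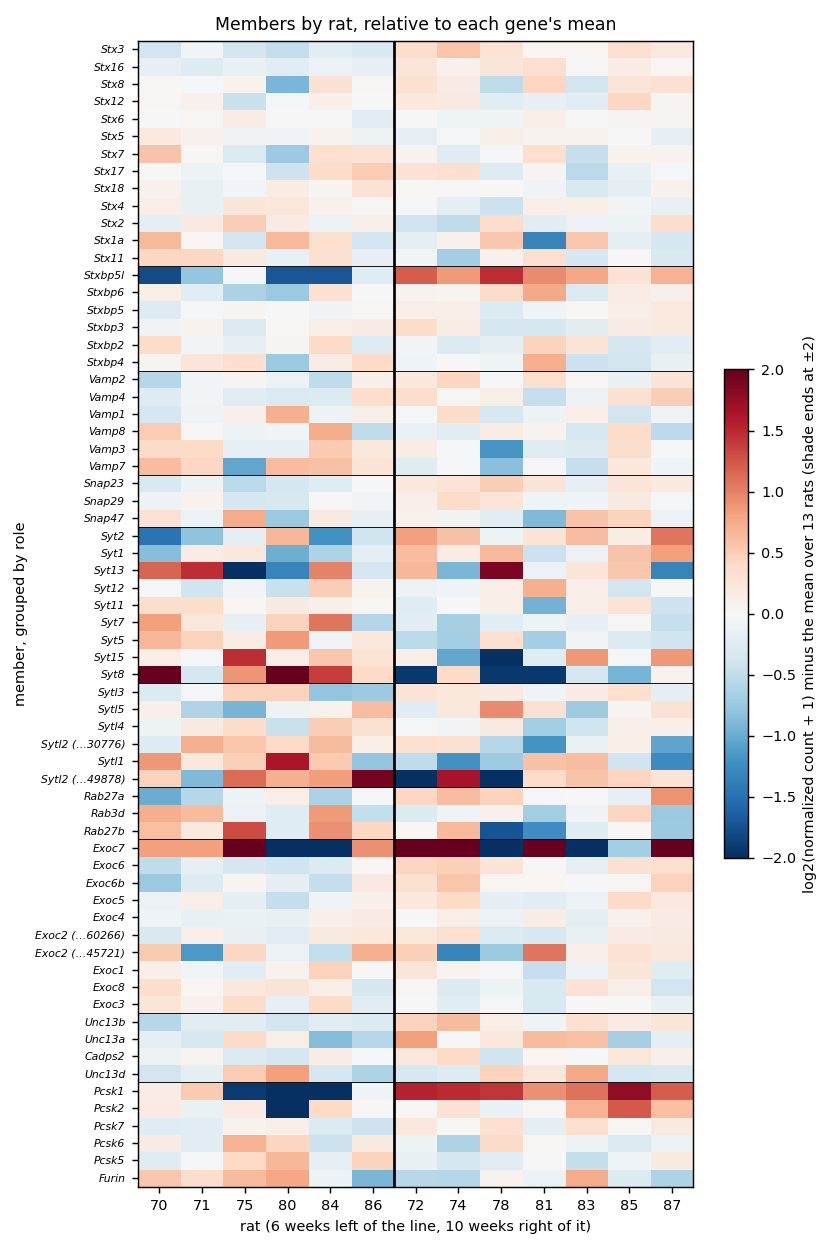
Log2(normalized count + 1) of 66 of the 68 members (rows, grouped by role) in each rat (columns, 6 weeks left of the line and 10 weeks right of it), as the difference from that row's mean over 13 rats, with the colour scale ending at 2 on either side. *Stxbp5l* and *Pcsk1* change shade at the line, whereas *Exoc7* and *Syt13* vary between rats of the same age.

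Among 6 proprotein convertases, *Pcsk1* (ENSRNOG00000011107) fell within WOS. It encodes PC1/3, the convertase of dense-core granules that cuts prohormones. *Pcsk1* had 66, 86, 15, 0, 12 and 57 normalized counts within WOS and 176, 170, 163, 113, 128, 205 and 139 outside WOS. Rats 75, 80 and 84 were far below rats 70, 71 and 86, and all 6 lay below the lowest 10-week rat (81). Since 1 read was worth 1.92 in rat 80, its 0 allows up to 5.76 normalized counts. The means were 39.3 ± 34.9 (SD, n = 6) and 156 ± 31.5 (SD, n = 7), a ratio of 3.97 (10 over 6 weeks) between the means, and the log2 fold change was -2.93 (SE 0.84, limma adjusted p = 0.0331). Without rat 80 it was -2.06 and called. The call was lost without rat 75, 84, 72, 74, 78, 85 or 87 (limma adjusted p = 0.0534, 0.0713, 0.0588, 0.059, 0.0528, 0.0515 and 0.0563), at log2 fold changes of -2.95 to -2.80. The larger set of rats gave -1.91 (limma adjusted p = 0.0384) and the smaller set -5.07 (limma adjusted p = 0.267). With a pseudocount of 0.1 the value was -3.51 and not called (limma adjusted p = 0.0812).

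The other convertases were not called. *Furin*, the convertase of the trans-Golgi network, had 4295, 3779, 4591, 5030, 2759 and 1564 normalized counts within WOS and 2013, 1977, 3108, 2708, 4936, 2447 and 1928 outside WOS. Rat 86 had the lowest count of all and rat 83 the second highest, so both ages spanned nearly the same range. The medians were 4037 within WOS and 2447 outside WOS, and 5 of 6 rats within WOS lay above the 10-week median. Its log2 fold change was 0.40 (95% interval -0.22 to 1.03, limma adjusted p = 0.363). *Pcsk7*, a convertase that cycles through the trans-Golgi network, had 364 to 528 within WOS (median 414) and 429 to 615 outside WOS (median 551), with -0.29 (limma adjusted p = 0.119). *Pcsk5* and *Pcsk6*, which act in part outside the cell, had 0.33 and 0.25. *Pcsk2*, the other prohormone convertase of dense-core granules, had 0 to 12 within WOS and 8 to 22 outside WOS, with -0.84 and an interval of -1.96 to 0.29.

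**Figure D4:**
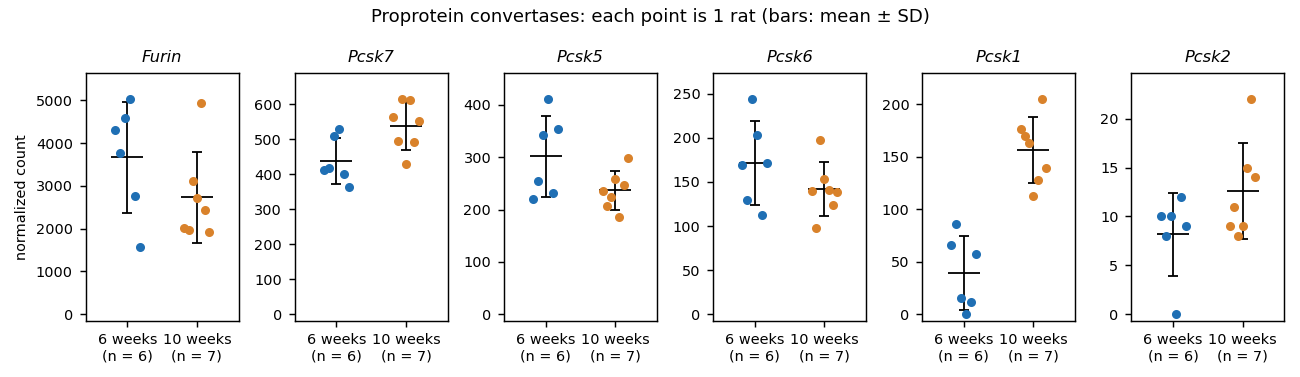
Normalized counts (y axis, from 0 on a scale of its own in each panel) of the 6 proprotein convertases at 6 weeks (blue, n = 6 rats) and 10 weeks (orange, n = 7 rats), with 1 point per rat and bars of mean ± SD. *Pcsk1* is the panel without overlap. *Furin* spans 1564 to 5030 within WOS (median 4037) against 1928 to 4936 outside it (median 2447).

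Genes that work beside the members were taken from 7 lists. These were chosen with earlier results of these data known, so their counts of calls are descriptions only. Of 11 factors that take apart or prime SNAREs 0 were called by limma, *Nsf* being at -0.044, and of 11 SNAREs of other transport steps *Sec22b* of the early secretory pathway rose within WOS (0.41). Of 21 RAB proteins and regulators *Rab11fip1*, an effector of recycling endosomes, fell (-0.47). Of 13 C2 domain and related membrane proteins *Anxa2* (-0.57) and *Myof* (-0.42) fell and *Dysf* rose (0.65), all of which are known from calcium-dependent membrane fusion or repair. Dense-core granule and peptide-processing genes gave 5 higher and 0 lower calls of 18, against 8.71% of all genes called higher. These were *Scg3* (1.94), a granin-binding granule protein, *Cpz* (1.90), *Qpct* (1.36), *Qpctl* (0.67) and *Mbtps1* (0.34). The other 13 were not called, among them *Cpe* (0.34), *Pam* (0.22), *Scg5* (0.16), *Ptprn* (0.52) and *Ptprn2* (-0.49). The granin *Chga*, also not called, had 1 to 27 normalized counts over all rats. Of 21 convertase substrates and inhibitors, *Mmp14*, a membrane protease that furin activates, rose (0.93) and *Insr*, the insulin receptor that furin cuts, fell (-0.43). Of 11 milk fat globule and luminal secretory genes, *Plin2* (-0.90) and *Xdh* (-0.71), which coat and release milk fat, fell within WOS.

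Markers of other cell types moved between the ages as well. Of 12 luminal markers 3 were lower within WOS (*Kit* at -0.71, *Cdh1* at -0.47 and *Epcam* at -0.39) and 0 higher, and their summed normalized counts were 46833 to 73153 within WOS and 67204 to 88771 outside WOS. Of 9 basal markers *Cnn1* was lower (-0.46). Of 7 fibroblast markers 4 were higher within WOS, with sums of 107169 to 223271 against 19699 to 55986. Of 8 mast cell markers 7 were higher and *Kit*, which luminal cells also express, was lower. Without *Kit*, their sums were 795 to 2068 within WOS and 48 to 479 outside WOS, where *Tpsab1* was at 0 in 3 rats. Calls numbered 2 of 6 for adipocytes, 1 of 8 for macrophages and lymphocytes, 2 of 8 for neurons and Schwann cells (*Uchl1* and *Tubb3*), all higher within WOS, and 0 of 5 for endothelium.

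**Figure D5:**
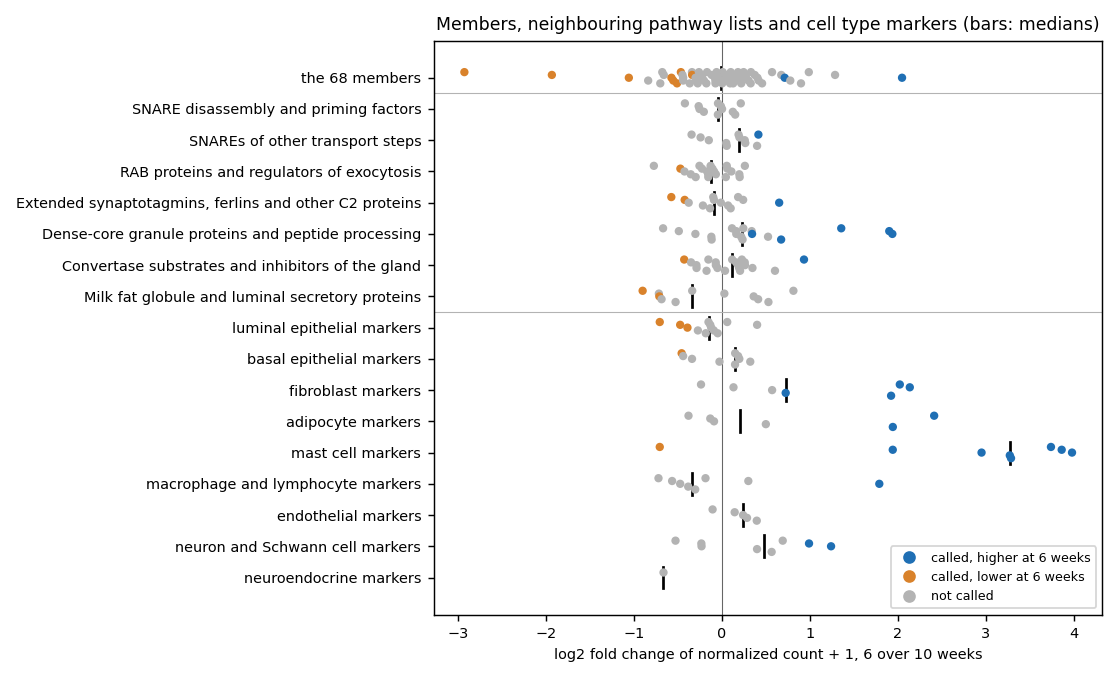
Log2 fold change of normalized count + 1 (x axis, 6 over 10 weeks) of the members, the genes of 7 neighbouring lists and the cell type markers (rows), with 1 point per gene and a bar at each median. Called genes are blue (higher at 6 weeks) or orange (lower), and fibroblast and mast cell markers lie farthest to the right, with medians of 0.73 and 3.28.

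When each rat was set relative to the mean log2 level of the luminal markers, a comparison chosen after the data were seen, the median of all genes moved from 0.028 to 0.204 and every member moved up by the same amount. *Stxbp5l* (-1.76, limma adjusted p = 0.0106) and *Pcsk1* (-2.75, limma adjusted p = 0.0434) were then the lower members still called, and *Stx3* (-0.38), *Unc13b* (-0.40), *Stx16* (-0.16), *Exoc6* (-0.33), *Snap23* (-0.29) and *Syt2* (-0.88) were not. *Syt8* (2.22), *Syt5* (0.89) and *Syt7* (0.75) were the 3 higher members called. Of all 14790 genes, 1837 were called in that comparison. This comparison cannot tell the part of cell content in the members' changes, since 3 of the 12 luminal markers were themselves called lower within WOS. That part was not tested.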

How the data were processed

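RNA-seq was made from mammary epithelial cells of 13 rats, with 1 library each. The authors estimated counts with RSEM v1.2.22, and the values they deposited for each rat are scaled per library and rounded, so their unit is taken as a score and no count model was used. The submitters' processing notes name build rn5. The annotation is not given in the sources used here. Beside these values the authors deposited an edgeR comparison of the ages (log2 fold change and abundance, likelihood ratio score, p-value, false discovery rate and −log10 of p), none of which was used.

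The ages were compared with limma 3.58.1 in R 4.3.3 on log2(value + 1) where a gene's mean was 1 or more, two-sided, with Benjamini-Hochberg adjustment and a threshold of 0.05. A test for raw counts had been planned in case the values were such. What 1 read is worth was read from gaps between low whole numbers (1 to 40), and limits at 0 cover counting error only. Python 3.11.15 (scipy 1.17.1, pandas 2.3.3, numpy 2.4.6) gave the other values, and the code was tested on simulated data. Promoter windows were matched by symbol.

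Named genes are all called members, those without overlap, those with an unadjusted p under 0.05, and in each role the member with the highest mean and the uncalled member with the largest change. Called genes of the lists are named too. *Stx4*, *Stx6*, *Stx8*, *Syt13* and other members were added after their values were seen, and 2 members enter the counts but are not reported here by name. Members and lists were chosen with earlier results of these data known. Alternatives were other scalings, filters, a pseudocount of 0.1, variance models, sets of rats and each rat left out.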

Additional observations from a re-analysis of the deposited data

Results flagged for a closer look

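Among 136 groups of rats, 1 for each member and age, 8 had a rat that stood apart from the others by Dixon's test, where chance gives about 5% of groups, or 6.8. No called member was among them. Rat 80, at 6 weeks, was low for *Stxbp4* (52 normalized counts, the other 6-week rats 91 to 115), for *Stx8* (42, the others 78 to 99) and for *Pcsk2* (0, the others 8 to 12), and 3 reads in this shallow library are worth 5.76. Rat 75, at 6 weeks, was low for *Stx12* (957, the others 1281 to 1406) and for *Vamp7* (43, the others 109 to 139). Rat 86, at 6 weeks, was high for *Vamp4* (289, the others 186 to 219). At 10 weeks, rat 81 was high for *Stxbp4* (145, the others 65 to 87) and rat 78, the other shallow library, was low for *Vamp3* (159, the others 299 to 458).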

How the results depend on the processing

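An unadjusted limma p under 0.05 was found for 20 members (29.4%, against 31.6% of all genes). Over these, 516 pairs of a member and an alternative kept their direction in every case. Of the pairs, 445 stayed on the same side of the threshold, 44 were called no longer and 27 were called anew. Leaving out 1 rat at a time gave 7 to 13 called members in place of 10, and 1411 to 2680 calls over all genes. Of the members, 1 to 3 were higher within WOS and 6 to 10 lower. The higher count was 1 without rat 70, 71, 72 or 87. Sample quality weights gave 23 calls (8 higher and 15 lower, with 5647 of all genes called). The minimum of 10 in every rat left 58 members and 0 higher calls by limma, since *Syt8* and *Syt5* were not tested there, and limma-trend gave 1 higher call. The larger set of rats gave 13 calls, 8 of them among the 10, with 3469 of 14774 genes called. Chosen after the data were seen, the smaller set of rats gave 0 calls by limma in either direction among the members, and 0 of all genes. Leaving out rats 78 and 80 gave 6 (1 higher and 5 lower), with 1846 of all genes called. Values relative to the luminal markers gave 5 (3 higher and 2 lower), with 1837 of all genes called. Of the cell type markers, 16 higher calls became 6 with the minimum of 10, under which 49 of 63 markers were tested. With library size scaling, 4 lower calls of markers became 1. Other causes were not tested. No paired analysis was possible because each rat number occurs at 1 age. Read depth limits members under 20 normalized counts, 7 of 68, among them *Syt8* and *Syt5*.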
